A study of Mus musculus with 8 samples.

Results

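The 36 genes described here are *Rest*, which encodes the repressor REST, and 35 neuronal genes listed as targets of REST and its co-repressor CoREST. They were chosen by name as known REST targets, when it was already known that *Gabra4* was lower in these hearts, and they are 36 of the 18194 genes that have a probe set annotated to them alone. They have 80 such probe sets of 45101 on the array, and 24 of the 36 genes have several. REST occupancy was not measured in these hearts, so the list says what these genes are known for and not that REST was bound to them here.

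REST binds a DNA element called RE1 in and near neuronal genes and keeps them silent in cells that are not neurons. One of its partners is CoREST, a scaffold protein that brings the histone deacetylases Hdac1 and Hdac2 and the lysine demethylase Lsd1 to chromatin, where Lsd1 removes methyl groups from histone H3 lysine 4. In the heart REST is known for its role in keeping fetal cardiac genes and ion channel genes low, and most genes on the list are used by neurons for transmitter release, secretion, axon growth or excitability.

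RNA was taken from whole hearts at E18.5 (late in embryonic development), from 3 *Aof2* 2lox/2lox embryos and from 5 wild-type littermates, and each heart was read on its own Affymetrix Mouse430 array. *Aof2* is the older symbol of *Kdm1a*, the gene for Lsd1. The 2lox allele is a floxed allele that has not been recombined and that carries point mutations in the tower domain of Lsd1, the part to which CoREST binds, and it is present in every cell of the embryo. The labels call these hearts both Lsd1-hypomorphic and knock-out, and the allele still makes a protein. The labels name no treatment and do not say which hearts were from the same litter. The values are deposited log2 expression levels that had already been normalised, so a difference of 1 is a doubling in signal.

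The arrays had medians between 5.03 and 5.10, and pairs of hearts correlated at 0.992 to 0.997 over all probe sets. *Kdm1a* had 9.44, 9.53 and 9.55 in the 2lox/2lox hearts, against 10.36, 10.34, 10.29, 10.32 and 10.26 in the wild-type hearts, and the groups did not overlap (log2 fold change -0.81, SE 0.06, limma adjusted p = 5.15e-04). Whether its probes lie in the floxed exons was not checked here. Cardiomyocyte markers, which define the labelled tissue, were high in every heart, at a mean level of 12.71 to 12.78 in 2lox/2lox hearts and 12.56 to 12.75 in wild-type hearts. Of 8 measured, none was called after adjustment. At an unadjusted p under 0.05, 1 was higher, *Nkx2-5* (log2 fold change 0.27, limma adjusted p = 0.336), where 5.82% of all genes were. RNA quality was read as the gap between the 3′ and 5′ control probe sets of *Actb* and *Gapdh*, which was 0.52, 0.50 and 0.33 in 2lox/2lox hearts 1, 2 and 3, against 0.32 to 0.38 in wild-type hearts. A further control, the 5′ probe set of 18S ribosomal RNA, read 8.60, 9.07 and 8.45 in the 2lox/2lox hearts, against 10.20, 10.84, 9.55, 11.31 and 11.49 in the wild-type hearts. It did not overlap between the genotypes, 2lox/2lox heart 3 included, and its part in the values of the listed genes was not tested. The 8 arrays limit the precision, and the p-values weigh the difference between the genotypes against the spread between hearts, as moderated by limma.

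The promoters of the listed genes were searched for the RE1 element, because it is the sequence through which REST reaches its targets. The motif was the left arm TTCAGCACC, any 2 bases, and the right arm GGACAGCGC, on both strands, with up to 4 mismatches over both arms. RefSeq promoter windows (GRCm38.p6) run from 250 bases before to 50 bases after the start of a gene. Windows were found for 25 of the 36 genes, and 3 of the 25 (12.0%) held a match, against 152 of 27025 genes (0.562%) in the whole table. The matches lay in *Gria2*, *Celsr3* and *Syn1*, and they are shown with 5 flanking bases on each side and with capitals for the bases identical to the arms:

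Gria2, chr3:80802984-80803013, plus strand: tcgatTTtAGCACCgcGGACAGCGCtttgg

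Celsr3, chr9:108825913-108825942, plus strand: ctccgTTCAGCACCgtGGgCAGCaCttctg

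Syn1, chrX:20921126-20921155, minus strand: tcggaTTCAGCACCgcGGtCAGaGCcttcg

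The match of *Gria2* had 1 mismatch and ran from base -173 to base -154 counted from the start of the gene, in the orientation opposite to the gene. Those of *Celsr3* (base -127 to base -108) and *Syn1* (base -232 to base -213) had 2 mismatches each and ran in the direction of the gene. With no bases between the arms, a spacing tried after the data were seen, 1 of the 25 genes, *Scg2*, held a match, against 100 of 27025 genes (0.370%):

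Scg2, chr1:79440020-79440047, plus strand: gccgtTTCAGCACCGGACAGCtCctcgg

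This match had 1 mismatch and lay over the start of the gene, from base -16 to base 2. The best alignment in the window of *Gabra4* had 7 mismatches of 18 letters, and 64.2% of all genes had as few or fewer. A match of letters is a description and not a measured site, and RE1 elements outside these windows were not searched.

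Of the 36 genes, 35 did not pass the test between 2lox/2lox and wild-type hearts, none was higher and 1, *Gabra4*, was lower. Each gene was read from its brightest probe set annotated to it alone, with limma and Benjamini-Hochberg adjustment over all 45101 probe sets. Over the brightest probe sets of all 18194 genes, 0.148% were called, 0.11% higher and 0.0385% lower. Before adjustment, at a p under 0.05, again none of the 36 was higher and 2 were lower, *Gabra4* and *Gap43*, where 10.2% of all genes were so called, 5.82% higher and 4.41% lower. The hearts of the 2 groups did not overlap in 1 of the 36 genes (*Gabra4*, lower), where they did not overlap in 3.16% of all genes with the 2lox/2lox hearts higher and in 2.81% with them lower. Among the 36 genes 16 log2 fold changes were above 0 and 20 below, with a median of -0.02 beside a median within 0.01 of 0 for all genes. Within 0.2 of 0 lay 34 of the 36, beside 16329 of 18194 genes in all. The median size of the change was 0.07 for the 36 genes and 0.07 for all genes. Whole hearts hold many cell types, so fewer cells of a type and less RNA per cell cannot be told apart in any of these values.

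**Figure D1:**
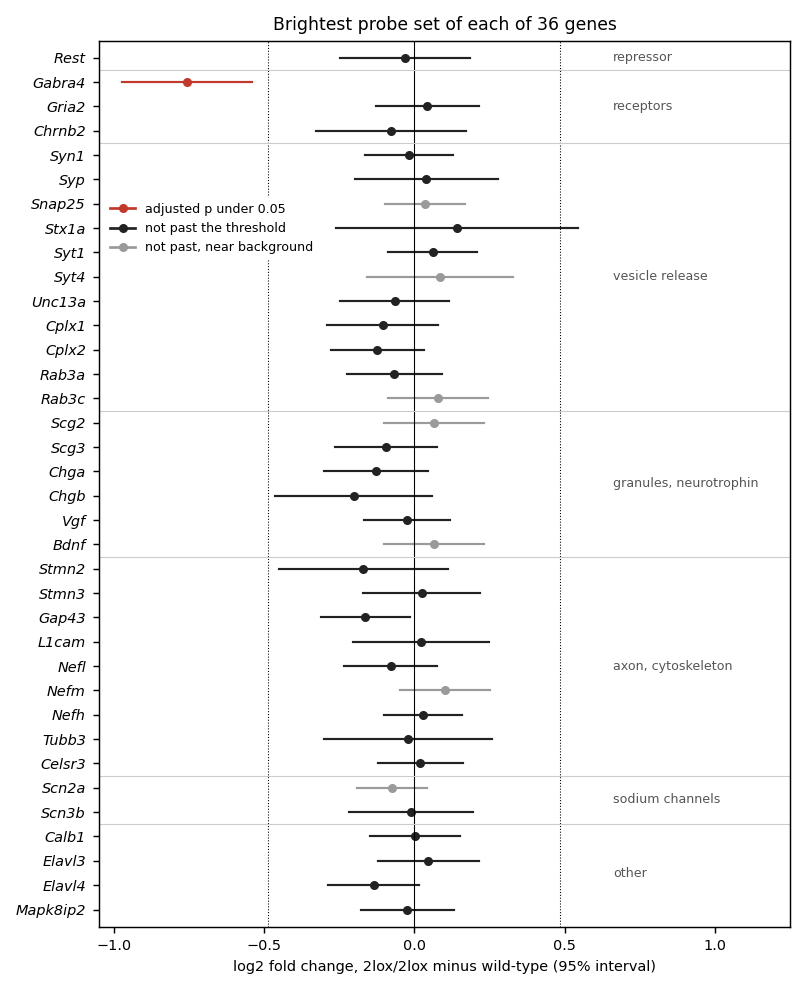
Log2 fold change (horizontal axis, 2lox/2lox minus wild-type, 3 against 5 hearts) of the brightest probe set of each of the 36 genes, grouped by role. Points are limma estimates and bars their 95% intervals, dotted lines mark the 1.4-fold change of the study's methods, red marks the gene past the adjusted threshold and grey genes near background. *Gabra4* at -0.76 stands alone on the left, and the interval of every gene but *Gabra4* and *Gap43* includes 0.

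The 95% intervals say how large a rise the 8 arrays could have missed. For 35 of the 36 genes the upper bound was under a log2 fold change of 0.49, which is the 1.4-fold change named in the methods. The exception was *Stx1a*, whose interval ran up to 0.54. On the lower side only the interval of *Gabra4* reached past a 1.4-fold fall.

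How these intervals read depends on whether a gene was above background. A probe set was called near background when its mean over the 8 hearts was under 4.21, the lower quartile of all values. By this measure 7 of the 36 genes were near background, *Snap25*, *Syt4*, *Rab3c*, *Scg2*, *Bdnf*, *Nefm* and *Scn2a*, beside 2526 of 18194 genes in all. Probe sets of olfactory receptor genes, which are used in the nose and so give another measure of background, had a median of 4.02 and a 95th percentile of 4.70. Under that percentile lay 16 of the 36 genes, beside 4875 of 18194 genes in all. A change in a transcript near background can be understated, where part of the signal is not from it. Only 10 of the 36 genes were above the median of all probe sets, 5.07, beside 11974 of 18194 genes in all. These were *Rest*, *Gabra4*, *Stx1a*, *Cplx1*, *Cplx2*, *Rab3a*, *Gap43*, *L1cam*, *Elavl3* and *Mapk8ip2*.

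**Figure D2:**
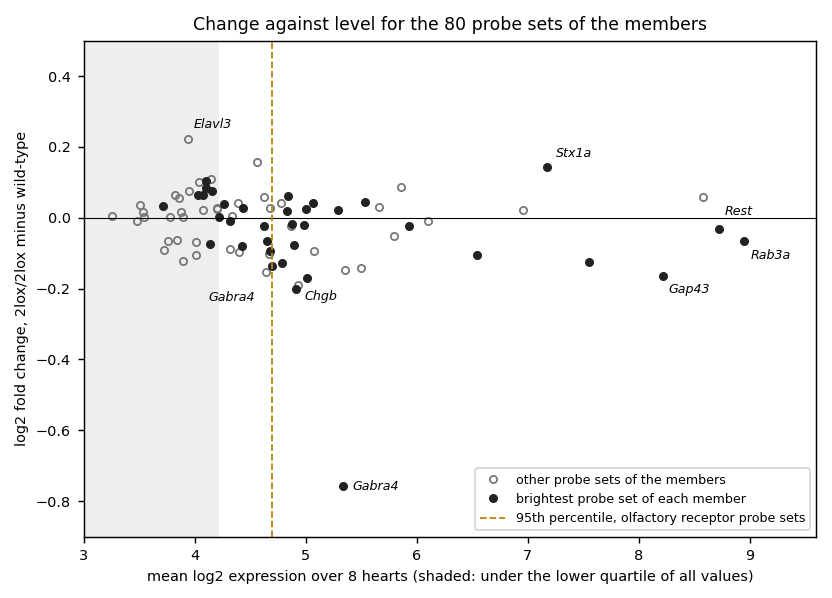
Log2 fold change (vertical axis, 2lox/2lox minus wild-type) against the mean log2 expression over 8 hearts (horizontal axis) for the 80 probe sets of the 36 genes. Filled points are the brightest probe set of each gene and open points the others. Shading marks the region under 4.21 and the dashed line the 95th percentile of olfactory receptor probe sets at 4.70. Many probe sets crowd near these marks within 0.2 of 0, and the brighter probe set of *Gabra4* lies far below the rest.

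*Rest* itself was well above background in both genotypes. Its brightest probe set had 8.72, 8.64 and 8.74 in the 2lox/2lox hearts, against 8.64, 8.70, 8.63, 8.64 and 9.05 in the wild-type hearts. The groups overlapped, and wild-type heart 5 was the highest (log2 fold change -0.03, SE 0.10, 95% interval -0.25 to 0.18, limma adjusted p = 0.951). The other bright probe set had 8.59, 8.60 and 8.64 in the 2lox/2lox hearts, against 8.70, 8.59, 8.42, 8.51 and 8.54 in the wild-type hearts, at 0.06 on the log2 scale (limma adjusted p = 0.824). In that probe set wild-type heart 5 was not the highest. The remaining pair of *Rest* probe sets both had a log2 fold change of 0.03.

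*Gabra4*, which encodes the α4 subunit of the GABA-A receptor, a chloride channel opened by the transmitter GABA, was the gene that fell. Its brighter probe set had 4.84, 5.0 and 4.76 in the 2lox/2lox hearts, against 5.84, 5.60, 5.39, 5.59 and 5.70 in the wild-type hearts. Every 2lox/2lox heart was below every wild-type heart, and the means were 4.86 ± 0.12 (SD, n = 3) and 5.62 ± 0.16 (SD, n = 5). The log2 fold change was -0.76 (SE 0.10, 95% interval -0.97 to -0.54, limma adjusted p = 0.0238), so the signal fell by 40.8%. The dimmer probe set had 4.52, 4.57 and 4.54 in the 2lox/2lox hearts, against 4.68, 4.73, 4.67, 4.77 and 4.64 in the wild-type hearts. It lay under the 95th percentile of the olfactory receptor probe sets and again did not overlap between the groups, with a log2 fold change of -0.15 (SE 0.05, limma adjusted p = 0.346). Both probe sets therefore ran the same way, with sizes that differed by over 0.5. *Gabra4* stayed past the threshold in 11 of 18 alternative settings, with log2 fold changes of -0.82 to -0.46 over all of them and adjusted p of 0.0155 to 0.361. The 11 include the 2 filters on dim probe sets, which this probe set passed only through its wild-type hearts. No 2lox/2lox heart exceeded 5, the cut of one filter, and their mean of 4.86 was under 5.07, the cut of the other. Those 2 settings are therefore no separate support. Without 2lox/2lox heart 1 the limma adjusted p was 0.123, and without wild-type heart 1, 2, 4 or 5 it was 0.0605, 0.0752, 0.0626 or 0.0559. With the *Actb* and *Gapdh* measure of RNA quality as a covariate the log2 fold change was -0.79 (limma adjusted p = 0.361), and the 18S control, which was also lower in every 2lox/2lox heart, was not among the alternatives.

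**Figure D3:**
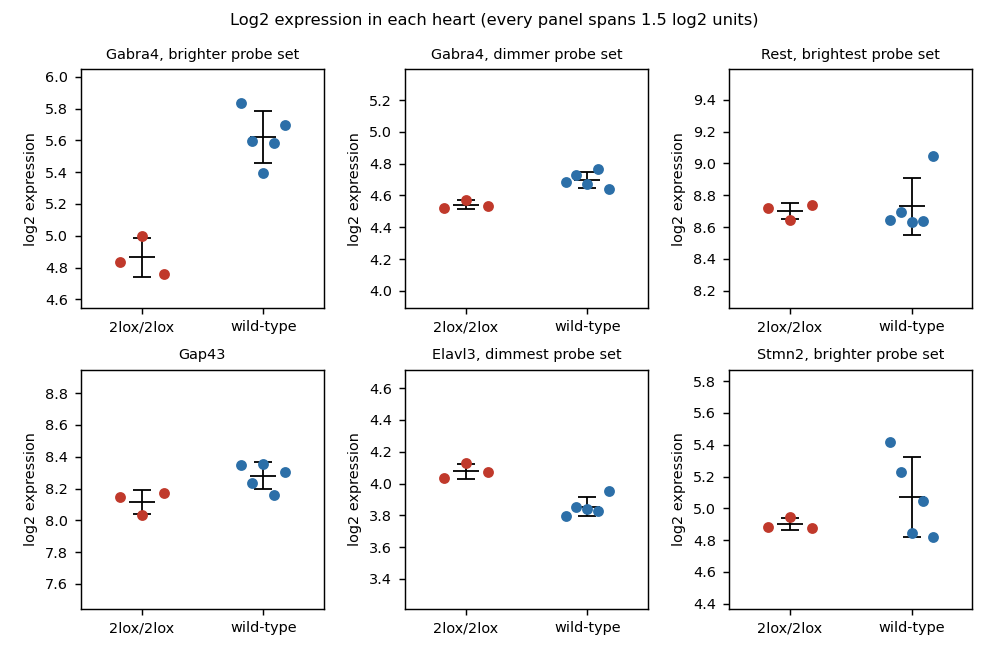
Log2 expression (vertical axis) in each heart for 6 probe sets of the listed genes, with 2lox/2lox hearts in red on the left and wild-type hearts in blue on the right; lines give the mean and SD, and every panel spans the same number of log2 units. Both *Gabra4* probe sets separate the genotypes, *Gap43* overlaps by a single pair of hearts, the dimmest *Elavl3* probe set separates in the other direction at values under 4.21, and *Stmn2* is spread widely among wild-type hearts.

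*Gabra4* lies on chromosome 5 in a cluster of GABA-A receptor genes, and its neighbours in the RefSeq gene order were read beside it. *Gabra2*, 2 genes away on one side, had a log2 fold change of 0.10, and *Gabrg1*, the next gene out, -0.01. *Gabrb1*, the next gene on the other side, had -0.17 (limma adjusted p = 0.611). *Commd8*, a gene outside the receptor family, had -0.27 (limma adjusted p = 0.354), and *Gnpda2*, an enzyme gene of amino sugar metabolism, had -0.23 (limma adjusted p = 0.303). None of the 8 neighbours examined, 4 on each side, passed the threshold. Before adjustment *Gnpda2* and *Commd8*, on opposite sides of *Gabra4*, were lower at an unadjusted p under 0.05, where 4.41% of all genes were lower. The other neighbours were not called at that level in either direction. Of 14 other GABA-A receptor subunits measured, of 17 listed, none was called higher or lower, either after adjustment or at an unadjusted p under 0.05, and their median was -0.05, with 12 of 14 below 0. Of these 14, 7 were near background and 13 lay under the olfactory 95th percentile. *Gabre*, of the ε subunit, had -0.16, *Gabrb2*, of the β2 subunit, had -0.14, and *Gabra3*, of the α3 subunit, had 0.08.

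The other listed receptors did not pass the test. *Gria2*, which encodes an AMPA glutamate receptor subunit and whose window held the closest RE1 match with the standard spacing, had 5.28, 5.0 and 5.01 in the 2lox/2lox hearts, against 5.07, 5.10, 5.03, 4.94 and 5.11 in the wild-type hearts. The groups overlapped (log2 fold change 0.04, limma adjusted p = 0.901), and 2lox/2lox heart 1 was the highest. The other probe sets of *Gria2* had -0.09 and -0.01. *Chrnb2*, of the β2 subunit of nicotinic acetylcholine receptors, had a log2 fold change of -0.08 (95% interval -0.33 to 0.17).

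The genes of transmitter release were the largest group, with 11 members, and none passed the test. Their log2 fold changes ran from -0.12 to 0.14 with a median of 0.03, 3 were near background and 4 were above the median of all probe sets. *Rab3a*, a small GTPase of synaptic vesicles, had 9.05, 8.81 and 8.86 in the 2lox/2lox hearts, against 8.95, 9.04, 9.01, 8.99 and 8.86 in the wild-type hearts. Its groups overlapped in the brightest probe set (log2 fold change -0.07) and in the other one (0.02). The complexins clamp and release the fusion machinery of vesicles. *Cplx1* had 6.40, 6.64 and 6.41 in the 2lox/2lox hearts, against 6.57, 6.51, 6.55, 6.78 and 6.53 in the wild-type hearts (log2 fold change -0.11, limma adjusted p = 0.719). *Cplx2* had 7.49, 7.55 and 7.39 in the 2lox/2lox hearts, against 7.52, 7.76, 7.60, 7.56 and 7.57 in the wild-type hearts (log2 fold change -0.12, limma adjusted p = 0.576). Both genes overlapped between the genotypes. The probe sets of *Cplx2* ran in both directions, with 0.09 in the second brightest and -0.15 in the dimmest (limma adjusted p = 0.436).

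*Stx1a*, which encodes syntaxin 1A, a membrane protein of the fusion complex, had the widest spread of the 36 genes. Its brightest probe set had 7.49, 7.24 and 7.07 in the 2lox/2lox hearts, against 7.06, 7.41, 6.85, 7.55 and 6.75 in the wild-type hearts. The wild-type hearts alone covered the whole range, the log2 fold change was 0.14 (SE 0.18, 95% interval -0.26 to 0.54), and the pooled SD of 0.31 was larger than that of 97.7% of all probe sets. The other probe set of *Stx1a* had a log2 fold change of -0.14 (95% interval -0.35 to 0.07). *Syn1*, of synapsin I, which tethers vesicles, had 4.95, 4.79 and 4.84 in the 2lox/2lox hearts, against 4.83, 4.97, 4.83, 4.95 and 4.81 in the wild-type hearts (log2 fold change -0.02). Its groups overlapped too, with an RE1 match in its window. *Snap25*, the partner of syntaxin in the fusion complex, read 3.67 to 3.80 in 2lox/2lox hearts and 3.62 to 3.76 in wild-type hearts, values that cannot be told from background. *Syt1*, the calcium sensor of release, had a log2 fold change of 0.06, *Syp*, of the vesicle protein synaptophysin, had 0.04, and *Unc13a*, which primes vesicles, had -0.07.

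Among 6 genes of secretory granules and secreted factors, none passed the test and the median was -0.06. *Chgb*, of the granule protein chromogranin B, had 4.68, 4.57 and 5.12 in the 2lox/2lox hearts, against 4.85, 4.98, 5.07, 5.12 and 4.95 in the wild-type hearts. 2lox/2lox hearts 1 and 2 were below all wild-type hearts and 2lox/2lox heart 3 was level with the highest of them (log2 fold change -0.20, 95% interval -0.46 to 0.06, limma adjusted p = 0.590). *Chga*, of chromogranin A, showed the same split, with 4.62, 4.59 and 4.92 in the 2lox/2lox hearts, against 4.89, 4.84, 4.80, 4.78 and 4.89 in the wild-type hearts (log2 fold change -0.13, limma adjusted p = 0.613). The 2lox/2lox hearts that were low in both genes were those with the wider gap between 3′ and 5′ controls, and the part of RNA quality in this split was not tested. *Scg2*, of secretogranin II, was near background, with 4.18, 3.93 and 4.09 in the 2lox/2lox hearts, against 4.07, 4.07, 3.88, 3.94 and 4.05 in the wild-type hearts (log2 fold change 0.06). *Bdnf*, a neurotrophin, had 0.06 at background level, *Vgf*, of a secreted neuropeptide precursor, had -0.02, and *Scg3*, of secretogranin III, had -0.09. The other probe set of *Bdnf*, also near background, had -0.12.

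None of 9 genes of the axon and cytoskeleton passed the test, and their median log2 fold change was 0.02. *Gap43*, of a growth cone protein, had 8.15, 8.03 and 8.17 in the 2lox/2lox hearts, against 8.35, 8.23, 8.36, 8.16 and 8.31 in the wild-type hearts. The groups overlapped by 1 pair of hearts, and the log2 fold change of -0.16 (SE 0.07, 95% interval -0.31 to -0.02) did not pass after adjustment (limma adjusted p = 0.409). *Stmn2*, of a microtubule regulator of growing axons, had 4.88, 4.94 and 4.88 in the 2lox/2lox hearts, against 5.41, 5.23, 4.84, 5.05 and 4.82 in the wild-type hearts. Its wild-type hearts lay on both sides of the 2lox/2lox hearts (log2 fold change -0.17, limma adjusted p = 0.698), and in the other probe set wild-type hearts 1 and 2 were again the highest (log2 fold change -0.19). *Tubb3*, of a neuronal tubulin, had 5.10, 4.86 and 4.96 in the 2lox/2lox hearts, against 4.97, 5.33, 4.91, 5.07 and 4.68 in the wild-type hearts (log2 fold change -0.02). *L1cam*, of an axonal adhesion molecule, had 5.33, 5.36 and 5.23 in the 2lox/2lox hearts, against 5.08, 5.34, 5.15, 5.57 and 5.29 in the wild-type hearts, which surrounded them (log2 fold change 0.02). *Celsr3*, a cadherin gene of axon guidance with an RE1 match in its window, had 4.76, 4.86 and 4.90 in the 2lox/2lox hearts, against 4.70, 4.81, 4.85, 4.89 and 4.86 in the wild-type hearts (log2 fold change 0.02). The neurofilament genes *Nefl*, *Nefm* and *Nefh* had log2 fold changes of -0.08, 0.10 and 0.03, and *Stmn3*, a relative of *Stmn2*, had 0.02.

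The sodium channel genes were dim. *Scn2a*, of a neuronal pore-forming subunit, had -0.07 near background, and *Scn3b*, of an auxiliary subunit, had -0.01. Among the last 4 genes, *Mapk8ip2*, of a scaffold for JNK signalling, had 5.87, 5.95 and 5.93 in the 2lox/2lox hearts, against 5.85, 5.98, 5.92, 6.10 and 5.85 in the wild-type hearts (log2 fold change -0.02). *Calb1*, of a calcium buffer, had 0.00, and *Elavl4*, of a neuronal RNA-binding protein, had -0.14 (95% interval -0.29 to 0.02). The other probe sets of *Elavl4* had 0.01 and 0.11. *Elavl3*, a relative of *Elavl4*, disagreed among its probe sets. The brightest had 5.58, 5.54 and 5.57 in the 2lox/2lox hearts, against 5.50, 5.40, 5.73, 5.50 and 5.45 in the wild-type hearts, and overlapped (log2 fold change 0.05). The dimmest had 4.03, 4.13 and 4.07 in the 2lox/2lox hearts, against 3.80, 3.85, 3.84, 3.83 and 3.95 in the wild-type hearts. There every 2lox/2lox heart was higher (log2 fold change 0.22, SE 0.06, limma adjusted p = 0.237), but all 8 values were under 4.21, and the probe set between had -0.02.

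Over all 80 probe sets, none was called higher and 1 lower, where 0.0798% of all probe sets were called, 0.0621% higher and 0.0177% lower. Before adjustment (p under 0.05) 1 probe set was higher (*Elavl3*, the dimmest) and 4 were lower (both of *Gabra4*, that of *Gap43* and the dimmest of *Cplx2*), where 10.9% of all probe sets were so called, 5.97% higher and 4.94% lower. The groups did not overlap in 1 probe set that was higher and 2 that were lower, where 6.11% of all probe sets did so, 3.41% higher and 2.71% lower. Of the 80, 42 had a log2 fold change above 0 and 38 below.

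Each heart held listed genes on both sides of the wild-type mean. Against the wild-type mean of each gene, 19, 11 and 18 of the 36 genes were higher in 2lox/2lox hearts 1, 2 and 3, against 18, 23, 16, 18 and 13 in wild-type hearts 1 to 5. The mean deviation over the genes was -0.02, -0.08 and -0.03 in the 2lox/2lox hearts, against 0.01, 0.05, -0.02, 0.01 and -0.06 in the wild-type hearts, so the groups overlapped. That mean includes *Gabra4*, which was lower in every 2lox/2lox heart and known to be so when the genes were chosen. The heart with the fewest genes above the wild-type mean was 2lox/2lox heart 2 and the one with the most was wild-type heart 2. The median pooled SD between hearts was 0.10 for the 36 genes and 0.11 for all genes. After *Stx1a*, the genes with the widest spread were *Stmn2* (0.21), *Tubb3* (0.21), *Chgb* (0.19) and *Chrnb2* (0.18).

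**Figure D4:**
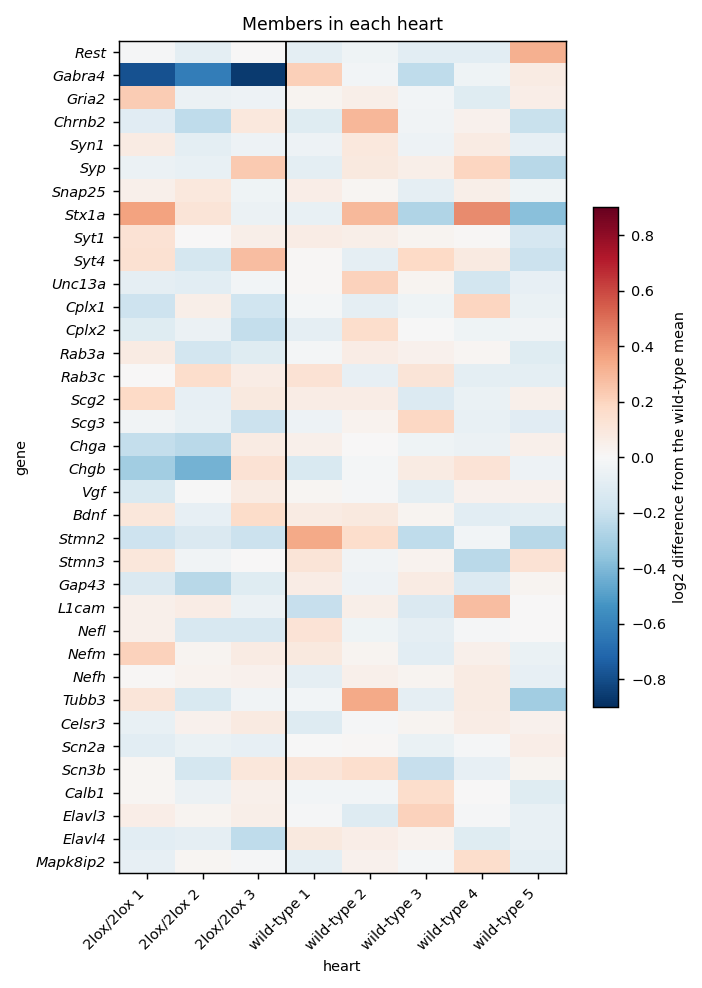
Log2 difference from the wild-type mean (colour scale) for the brightest probe set of each of the 36 genes (vertical axis) in each heart (horizontal axis, 2lox/2lox hearts left of the line). The *Gabra4* line is the only one that is strongly blue in all 3 2lox/2lox hearts, while *Stx1a*, *Stmn2* and *Tubb3* vary among the wild-type hearts.

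Neurons reach the heart as its autonomic innervation, so markers of these cells were read beside the targets. Of 10 autonomic neuron markers measured, of 13 listed, none was called, and their mean level was 5.40 to 5.50 in 2lox/2lox hearts and 5.42 to 5.54 in wild-type hearts. Their median log2 fold change was -0.06, with 8 of 10 below 0, and 1 of them, *Phox2a*, a transcription factor gene of autonomic neurons, was near background. *Uchl1*, a ubiquitin hydrolase abundant in neurons, had 9.02, 8.88 and 8.93 in the 2lox/2lox hearts, against 9.26, 9.13, 9.12, 8.95 and 9.18 in the wild-type hearts. Its groups overlapped by 1 wild-type heart (log2 fold change -0.19, SE 0.07, limma adjusted p = 0.404). At an unadjusted p under 0.05, 1 of the 10 markers, *Uchl1*, was lower and 0 were higher, where 4.41% of all genes were lower and 5.82% higher. *Dbh*, of the enzyme that makes noradrenaline, had -0.11, and *Ret*, of a receptor of enteric and autonomic neurons, had -0.08. Glia markers (6 measured of 8, 2 near background) had a mean level of 5.10 to 5.18 in 2lox/2lox hearts and 5.11 to 5.29 in wild-type hearts. None was called, and *Sox10*, their defining transcription factor gene, had -0.07. The part of nerve cell content in the values of *Gabra4*, *Gap43* and *Chgb* was not tested.

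Of the other cell types a dissected heart could hold, lung and thymus markers had a mean level of 4.68 to 4.78 in 2lox/2lox hearts and 4.68 to 4.80 in wild-type hearts. Of these markers 3 of 7 were near background, 4 were above the median of all probe sets, and none was called. Blood markers ranged from 6.20 to 7.28 in 2lox/2lox hearts and from 5.45 to 7.78 in wild-type hearts, with none of 3 called. Macrophage markers had a mean level of 7.32 to 7.60 in 2lox/2lox hearts and 6.82 to 7.22 in wild-type hearts. All 8 had a log2 fold change above 0, with a median of 0.36. Before adjustment 6 of 8 were higher at a p under 0.05, where 5.82% of all genes were, and 3 of 8 did not overlap between the groups, where 3.16% of all genes did so with the 2lox/2lox hearts higher. After adjustment 1, *Cybb*, of the phagocyte oxidase, passed the threshold (log2 fold change 0.83, limma adjusted p = 0.0346), though not under quantile normalisation, median centring or the covariate for RNA quality. The part of this shift in the values of the neuronal genes was not tested.

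Genes of the proteins that work with REST and CoREST were read as well. Of 21 measured, of 23 listed, 1 was lower (*Kdm1a*) and none was higher after adjustment, while at an unadjusted p under 0.05 there were 9 higher and 1 lower, where 5.82% of all genes were higher and 4.41% lower. Their median log2 fold change was 0.10, and 16 were above 0. Their mean deviation from the wild-type mean was 0.09, 0.09 and 0.02 in 2lox/2lox hearts 1, 2 and 3, against -0.05 to 0.05 in wild-type hearts. 2lox/2lox hearts 1 and 2, those with the wider gap between 3′ and 5′ controls, were above all wild-type hearts and 2lox/2lox heart 3 was not. The part of RNA quality in this list was not tested. *Rcor2*, which encodes a relative of CoREST, had 7.20, 7.60 and 7.15 in the 2lox/2lox hearts, against 6.75, 6.88, 7.0, 6.93 and 6.82 in the wild-type hearts. The groups did not overlap, as in 3.16% of all genes with the 2lox/2lox hearts higher, but the log2 fold change of 0.44 (SE 0.10) did not pass after adjustment (limma adjusted p = 0.219), and with RNA quality as a covariate it was 0.30. *Smarca4*, of the chromatin remodeller Brg1, had 0.24 (limma adjusted p = 0.338) and *Hmg20b*, of a subunit of the CoREST complex, had 0.23 (limma adjusted p = 0.357).

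REST is also known to act on genes that cardiac muscle itself uses. Of 6 such targets measured, of 7 listed, none was called, there were at an unadjusted p under 0.05 2 higher and 1 lower (5.82% and 4.41% of all genes), and the median log2 fold change was 0.18. *Cacna1h*, of a T-type calcium channel, had 8.42, 8.60 and 8.05 in the 2lox/2lox hearts, against 8.04, 8.06, 7.87, 7.82 and 7.80 in the wild-type hearts. 2lox/2lox hearts 1 and 2 were above all wild-type hearts and 2lox/2lox heart 3 was not (log2 fold change 0.44, SE 0.12, limma adjusted p = 0.250). Without 2lox/2lox heart 3 the value of *Cacna1h* was 0.59 (limma adjusted p = 0.0231), a setting in which 797 probe sets were called in place of 36, and with RNA quality as a covariate it had 0.21. *Gnao1*, of a G protein α subunit, had 7.47, 7.39 and 7.31 in the 2lox/2lox hearts, against 6.99, 7.19, 7.21, 7.26 and 7.12 in the wild-type hearts. Its groups did not overlap, as in 3.16% of all genes with the 2lox/2lox hearts higher (log2 fold change 0.24, SE 0.07, limma adjusted p = 0.306), and with RNA quality as a covariate it had 0.15. *Nppa*, of atrial natriuretic peptide, had -0.27 (limma adjusted p = 0.393) and *Acta1*, of skeletal α-actin, had 0.43 (limma adjusted p = 0.466).

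A further list of neuronal REST targets outside the 36 genes gave 10 measured genes of 14. None was called higher or lower after adjustment or at an unadjusted p under 0.05, and the median log2 fold change was -0.03. Of the 10, 7 lay under the olfactory 95th percentile. *Tac1*, of the substance P precursor, had -0.12, *Slc18a3*, of the vesicular acetylcholine transporter, had -0.11, *Crh*, of corticotropin-releasing hormone, had -0.05 and *Oprm1*, of the μ opioid receptor, had 0.06.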

How the data were processed

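Total RNA of 8 E18.5 hearts was hybridized to Affymetrix Mouse430 arrays. The deposited values are log2 expression levels, normalised by the authors beforehand. Limma is named in the submitters' processing notes, without a version. How the probes were summarized and normalised is not given in the sources read here. No detection calls were used. Groups came from the labels. In R 4.3.3 with limma 3.58.1 (lmFit, eBayes), 2lox/2lox minus wild-type was fitted over 45101 probe sets, two-sided, with Benjamini-Hochberg adjustment and a threshold of 0.05. Platform annotation, updated to RefSeq symbols, gave 1 gene for 34958 probe sets (99.4% of them matched), several for 932 and none for 9211. The brightest probe set stood for a gene. Probe sets whose identifiers end in _x_at or _s_at, the brightest of *Stx1a*, *Rab3a*, *Stmn3* and *Cplx2* and that of *Kdm1a* among them, can read related transcripts. Promoter windows were those of RefSeq (GRCm38.p6).

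Genes named are *Rest*, *Gabra4*, *Kdm1a*, members above the median level, members at an unadjusted p under 0.05 or with disagreeing probe sets, and up to 4 genes of each other list by p; the other members are given by role. Members and lists were chosen with earlier results of these data known, and that *Gabra4* was lower was among them. Alternatives were an intensity trend, robust moderation, quantile normalisation, median centring, 2 filters on dim probe sets, weights per array, RNA quality as a covariate, a block for the replicate number, the mean over the probe sets of each gene, and each heart left out. Scripts were tested on simulated data.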

Additional observations from a re-analysis of the deposited data

Results flagged for a closer look

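In 3 of 39 groups of wild-type hearts examined, a single heart stood far from the other 4 for a listed gene, where chance gives about 1 in 20. *Rest* read 9.05 in wild-type heart 5, against 8.63 to 8.70 in the other wild-type hearts, in its brightest probe set. *Syt1*, the calcium sensor of transmitter release, read 4.67 in wild-type heart 5, against 4.84 to 4.89 in the others. *Cplx1*, a complexin, read 6.78 in wild-type heart 4, against 6.51 to 6.57 in the others.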

How the results depend on the processing

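*Gabra4* kept its direction in all 18 alternatives. It lost the threshold with the replicate number as a block (log2 fold change -0.74, limma adjusted p = 0.287) and with RNA quality as a covariate (-0.79), where the count of listed genes called lower was 0, and with hearts left out the log2 fold change ranged from -0.82 to -0.70 and that count from 0 to 1. Same-numbered hearts correlated at 0.01, -0.08 and -0.05 in their deviations from the group means. None of the 3 2lox/2lox hearts correlated best with its own number, so no pairing by number was seen. Whether same-numbered hearts shared a litter cannot be told from these values. Replicate numbers 4 and 5 occur only among wild-type hearts, so the block takes wild-type hearts 4 and 5 out of the difference between genotypes. This setting therefore rests on fewer hearts than the main test. The block left 0 calls in all in place of 36, *Kdm1a* among those lost, so that 0 REST and CoREST partners were called. The covariate left 9 calls, and leaving out a heart gave 17 to 797. The filters left 15 or 10 of the 36 genes and 29 or 24 calls. No listed gene was called higher in any setting. The other named members gave 209 values, 0 of them past the threshold and 12 of opposite sign. The count of macrophage markers called higher was 0 under quantile normalisation, median centring, the block and the covariate, and 0 to 2 with hearts left out. It was also 0 of 7 under the filter on the mean, which removed *Cybb* (mean 5.02, under the cut of 5.07) before the test. Cardiac REST targets called higher numbered 0 to 1 with hearts left out. Measured against the olfactory 95th percentile, a choice made after seeing the data, 16 genes in place of 7 were near background. RE1 matches numbered 1 in place of 3 with no bases between the arms of the motif, and 3 or 4 with a limit of 3 or 5 mismatches. Beyond the removal of *Cybb* by the filter on the mean, the cause of these differences was not tested. Dim probe sets limit what can be said of genes near background, where a fold change can be understated.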
